A study of Mus musculus with 17 samples.

Results

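miR-146a and miR-146b were followed in mouse kidney after ischemia-reperfusion injury (IRI) or sham surgery. They are 2 of the 569 mature miRs on the array, and were taken by the probe names mmu-miR-146a and mmu-miR-146b. Each of the 17 samples was RNA pooled from 3 mice of strain C57/BL6 at 10-12 weeks of age, with no transgene and no drug named for any group. The naive sample came from mice without surgery. The IRI samples came from kidneys that had undergone 30 minutes of warm ischemia and were taken in the first week on days 1, 3, 5 and 7 and later on days 10, 14, 21 and 30, and the sham samples came from sham-operated mice on the same days. The labels give female mice and the methods male mice. IRI RNA (Cy3) and sham RNA (Cy5) of a day shared an array, the dyes were not swapped, and naive RNA (Cy3) was hybridised alone. No day had a second pool, so the 8 days served as the points of each comparison, and a pool shows no spread between mice. The pair was chosen by its IRI against sham ratios, which are therefore given as a description with no test.

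MicroRNAs are short RNAs that guide Argonaute to partly matching sites in messenger RNAs and lower the protein made from them, and the bases after the first, the seed, do most of the matching. Transcription of the miR-146 genes is induced by NF-κB downstream of Toll-like and interleukin-1 receptors. The miR-146 products repress Traf6 and Irak1, adaptors of those same receptors, so the family is known as a negative feedback on inflammatory signalling. In the kidney it has been described in injured tubule cells as well as in the leukocytes that enter injured tissue. Whole-kidney RNA does not separate these sources, and a change in the share of a cell type cannot be told apart from a change in the miR content of its cells.

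The mature sequences are shown because the probes must tell them apart. They are written 5′ to 3′ with the seed, bases 2 to 8, in capitals.
miR-146a: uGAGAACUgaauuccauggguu
miR-146b: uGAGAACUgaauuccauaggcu
Both are 22 bases long and share 20 of 22 positions. Counted from 1 at the 5′ end, miR-146b differs from miR-146a by G18A and U21C. The seed GAGAACU was carried by 0 other miRs among the 569 on the array, and in RefSeq (GRCm38.p6) by 2 of 1679 mature miRs, which are these same ones. The nearest other probe sequence lay 8 edits from miR-146a (miR-194) and 9 edits from miR-146b (let-7f).

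The genes lie on different chromosomes. Their RefSeq hairpins are shown because they differ far more than the mature strands do; the mature strand is in capitals.
Mir146: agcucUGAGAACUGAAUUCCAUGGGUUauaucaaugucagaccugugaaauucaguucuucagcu
Mir146b: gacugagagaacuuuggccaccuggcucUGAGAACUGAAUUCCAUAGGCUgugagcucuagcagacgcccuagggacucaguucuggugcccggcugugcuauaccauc
Mir146 spans chr11:43374397-43374461 on the minus strand (GRCm38.p6), with the mature strand at chr11:43374435-43374456, and no other gene of the annotation overlaps it. Mir146b spans chr19:46342762-46342870 on the plus strand, with the mature strand at chr19:46342790-46342811, and overlaps the lncRNA gene Gm36493.

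Each miR had 6 spots per array. Of the 569 miRs, 162 reached a normalized intensity of at least 200 in at least 1 sample and were tested, and 104 were above background in every sample, meaning a spot mean over the median of the 250 empty spots plus 3 scaled median absolute deviations. The empty spots had a median intensity of 185.5-515.9 in the IRI channel, 32.98-43.93 in the sham channel and 510.9 on the naive array, so weak signals were read over a higher background in Cy3 than in Cy5. miR-146a reached 200 in all 17 samples. miR-146b reached it in 5 samples, all of them IRI, so it passed the filter only through the group in which it was high.

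In IRI kidneys miR-146a, the family member named first in macrophage responses to bacterial products, had its highest levels from day 14 on. With the days taken in order, its normalized intensity was 536.5, 638, 575.3 and 993 in the first week, 764.2 on day 10, and then 2369, 2280 and 4318, with a standard error over the 6 spots of 12, 18, 16, 14, 43, 210, 26 and 330. In sham kidneys it was 578.7, 528.9, 414.9, 471.9, 441.5, 584.8, 441.1 and 439.2 on the same days, and in naive kidneys 596.3. The IRI samples of days 1 and 5 lay inside the sham range, and the IRI samples of day 3 and of day 7 on lay above every sham sample. Against naive kidneys the IRI level was 0.900-fold at the first time point, 1.67-fold on day 7, 3.97-fold on day 14 and 7.24-fold at the last, and 6 of 8 IRI days were above the naive value. In sham kidneys 0 of 8 days were above it, at 0.696- to 0.981-fold, with sham and naive RNA read in different dyes. In the order of the IRI levels, days 14 and 21 did not differ beyond the error of the spots, nor did day 3 and naive, naive and day 5, or days 5 and 1 (gaps of 0.421, 0.913, 0.467 and 1.94 combined standard errors). All sham neighbours in that order lay within 1.82 combined standard errors.

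miR-146b, transcribed from its own gene, had the same late high levels on a lower signal. Its normalized intensity in IRI kidneys, in the same order, was 134.2, 172.1, 215.5 and 268 in the first week, 119.3 on day 10, and then 1084, 801.8 and 1125, with a standard error over the spots of 5.1, 7.7, 10, 7.2, 6.3, 130, 14 and 140. In sham kidneys it was 108.4, 113, 110.2, 133.1, 108.7, 91.45, 98.57 and 119.6, and in naive kidneys 93.98. Day 10 was the only IRI sample inside the sham range, and the 3 IRI samples from day 14 on lay far above the rest. The signal was above background in 7 of 8 IRI samples (not on day 10), in 5 of 8 sham samples (not on days 7, 10 and 30) and in naive kidneys. The naive signal lay 3.17 scaled median absolute deviations over the empty-spot median, where the cutoff was 3. The sham and naive levels are therefore close to the floor of the measurement. Against naive kidneys the IRI level was 1.43- to 2.85-fold in the first week, 1.27-fold on day 10 and 11.5-, 8.53- and 12.0-fold at the 3 last time points. With the authors' processed values the folds over naive kidneys at those 3 time points were 20.5, 14.7 and 23.6. In the order of the IRI levels days 30 and 14 did not differ beyond the error of the spots (0.215 combined standard errors), nor did days 1 and 10 (1.84). In the sham order day 7 stood above day 30 by 3.99 combined standard errors and day 1 above day 21 by 5.33, and the other neighbours lay within 1.35.

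**Figure D1:**
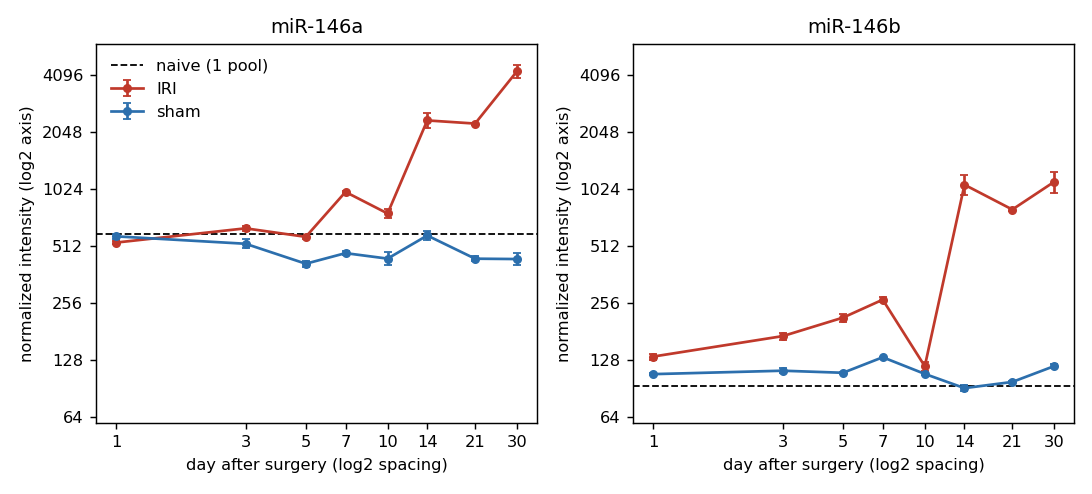
Normalized intensity (log scale) of miR-146a and miR-146b against day after surgery (log scale), with IRI and sham samples as points, the naive pool as a dashed line and error bars showing the standard error over the 6 spots of a sample. In IRI kidneys miR-146a ends at 4318 and miR-146b at 1125 on day 30, whereas the sham samples stay between 414.9 and 584.8 and between 91.45 and 133.1.

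In the table of processed values that the authors deposited, both miRs were also highest on the 3 last days. There miR-146a read 416, 637, 596, 908, 774, 2369, 2168 and 4449 in IRI kidneys by day, 307 to 612 in sham kidneys and 629 in naive kidneys. miR-146b read 49, 71, 108, 173, 59, 780, 558 and 895 in IRI kidneys, 20 to 38 in sham kidneys and 38 in naive kidneys. In these values all 8 IRI samples of miR-146b lay above all 8 sham samples, whereas in the normalized scanner intensities day 10 did not. In the latter, 2.47% of the 162 miRs had IRI samples that all lay above the sham samples, and neither member was among them. The other strand of the miR-146b hairpin, miR-146b*, was above background in 0 of 17 samples.

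Within an array, IRI over sham gives the ratio of a day. The log2 ratio of miR-146a was -0.11, 0.27, 0.47 and 1.07 in the first week, 0.79 on day 10, and 2.02, 2.37 and 3.30 at the 3 last time points. As a fold this ran from 0.927 on day 1 through 4.05 on day 14 to 9.83 on day 30, and among the 162 miRs its rank went from 108 on day 1 to 1 on day 30. Rank 2 on day 30 was miR-146b at 9.41-fold, with a sham signal not above background. The processed values had these in the other order, at 11.9-fold for miR-146a and 28.9-fold for miR-146b. The mean log2 ratio of miR-146a was 1.27 ± 1.18 (SD, n = 8 days), with IRI higher on 7 of 8 days. For scale, 24.1% of the 162 miRs were higher in IRI on at least 7 of 8 days.

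The log2 ratio of miR-146b was 0.31, 0.61, 0.97 and 1.01 in the first week, 0.13 on day 10, and 3.57, 3.02 and 3.23 at the 3 last time points. The folds were 1.24 to 2.01 in the first week, 1.1 on day 10, and 11.9, 8.13 and 9.41 thereafter, and it ranked 1 among the 162 miRs on days 14 and 21. On days 7, 10 and 30 the sham signal was not above background, so the folds of those days are set against the floor of the measurement. On days 14 and 21 the sham signal was above background. Its normalized intensities, 91.45 and 98.57, were still near those of the undetected miR-146b* in the same samples (93.41 and 90.7). The folds of days 14 and 21 are thus also set against a level near the floor. The mean was 1.61 ± 1.42 (SD, n = 8 days), with IRI higher on 8 of 8 days. These include day 10, on which miR-146b was not above background in either channel. With intensities under 200 set to 200, IRI was higher on 5 days. Of the 162 miRs, 24.1% were higher in IRI on at least 7 of 8 days. Day 10 interrupted both series, and the IRI channel of that day had the highest empty-spot intensity of the 8 arrays (515.9). Without day 10 the mean was 1.34 for miR-146a and 1.82 for miR-146b. The size of the miR-146b ratio differed between ways of processing: the processed values gave folds of 2.04 on day 1 and 28.9 on day 30, and setting intensities under 200 to 200 gave a mean log2 ratio of 0.93.

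**Figure D2:**
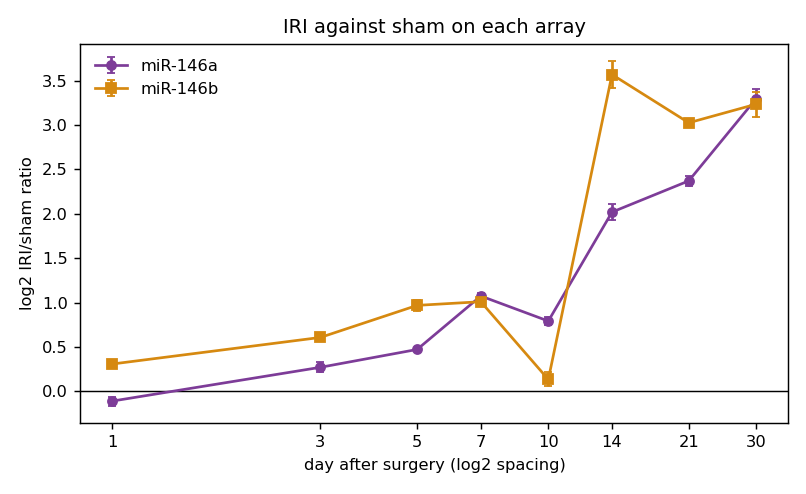
Log2 ratio of IRI over sham on each of the 8 arrays against day after surgery (log scale) for miR-146a and miR-146b, with error bars for the standard error over spots. miR-146a goes from -0.11 on day 1 to 3.30 on day 30, and miR-146b from 0.31 to 3.23 with a dip to 0.13 on day 10.

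The course over time inside each arm is given as a description too. The normalization rebuilt each arm from the mean and the ratio of the array, and the IRI level is the numerator of the ratio that chose the pair, so a slope within an arm is not independent of that ratio. In IRI kidneys the slope of miR-146a was 0.61 on the log2 scale per doubling of the day (SE 0.13), or 1.53-fold per doubling, and ranked 4 among the 162 miRs. The IRI slope of miR-146b, which was tested only because of its IRI samples, was 0.66 (SE 0.18), or 1.58-fold per doubling, and ranked 2. In sham kidneys the slopes were -0.06 (SE 0.05) for miR-146a and -0.01 (SE 0.05) for miR-146b. For scale, limma called a rising slope for 4.32% of the 162 miRs in IRI kidneys and for 0.617% in sham kidneys.

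With each channel scaled by its own median, which does not use the ratio, the IRI slopes were 0.65 for miR-146a and 0.83 for miR-146b, and the sham slopes -0.0046 and 0.16. With 1 day left out the IRI slope lay between 0.50 and 0.88 for miR-146a and between 0.59 and 0.91 for miR-146b, the highest of both coming without day 1. Without day 10 the slopes were 0.64 and 0.71.

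**Figure D3:**
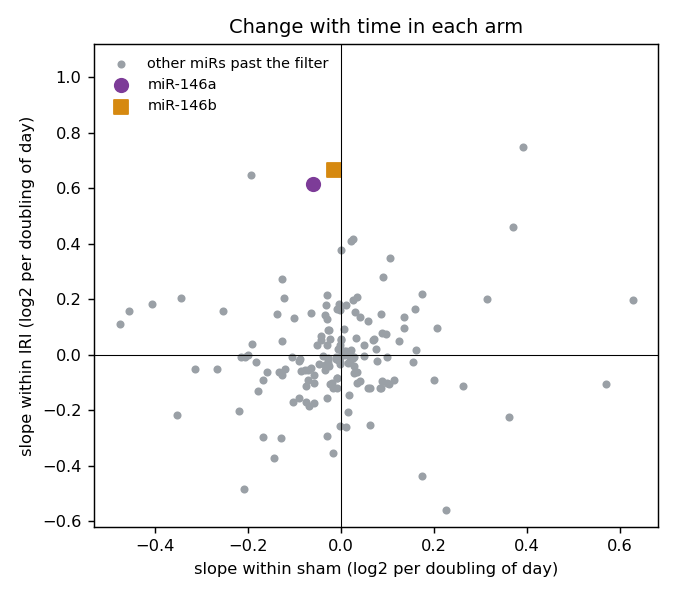
Slope of normalized log2 intensity per doubling of the day within IRI (vertical axis) against the slope within sham (horizontal axis), 1 point for each of the 162 miRs past the filter. miR-146a (0.61 against -0.06) and miR-146b (0.66 against -0.01) lie near the top of the IRI axis and close to 0 on the sham axis.

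The members were then set against each other. miR-146a minus miR-146b in log2 IRI over sham ratio was -0.42, -0.34, -0.50, 0.06, 0.66, -1.55, -0.65 and 0.06 by day, so miR-146b had the larger ratio on 5 days. Those were the days on which its sham signal was above background. On days 7, 10 and 30, when miR-146a had the larger ratio, the sham signal of miR-146b was not above background. On day 10 its IRI signal was not either. The mean difference was -0.33 ± 0.65 (SD, n = 8 arrays), smaller than the spread between the days, and its slope over log2 day was -0.0035. It is built from the same ratios and has no test. The mean widened to -0.47 with the processed values and to -0.78 with a smaller normexp offset of 16, and miR-146b then had the larger ratio on 7 days. With values under 200 set to 200 it turned to 0.34. The single largest gap was on day 14, when miR-146b stood at 11.9-fold and miR-146a at 4.05-fold.

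Because the probes differ by G18A and U21C alone, the signal of one was also written as a percent of the other. After subtraction of the empty-spot median, the miR-146b signal in IRI kidneys was 10.3%, 14.8%, 22.8% and 18.8% of the miR-146a signal in the first week, 22.4% on day 10, and 43.4%, 29% and 26.3% thereafter. In sham kidneys it was 2.32% to 6.35%, and 2.44% to 3.46% over the 5 days on which the miR-146b probe was above background. The IRI value of day 10 was also taken from a signal not above background. Within the IRI channel the percent on day 14 was the highest and that on day 1 the lowest. IRI and sham were read in different dyes, so the gap between the arms and the dye cannot be told apart by this measure. In the processed values the miR-146b signal was 7.62% to 32.9% of miR-146a in IRI kidneys and 4.86% to 8.29% in sham kidneys, with day 10 of IRI (7.62%) inside the sham range, the days without a signal above background included. The naive array, with its high background, gave 44.9% from the scanner intensities and 6.04% from the processed values. How much of the miR-146b signal came from miR-146a RNA was not tested. The percent compares probes and is not a ratio of molecules.

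**Figure D4:**
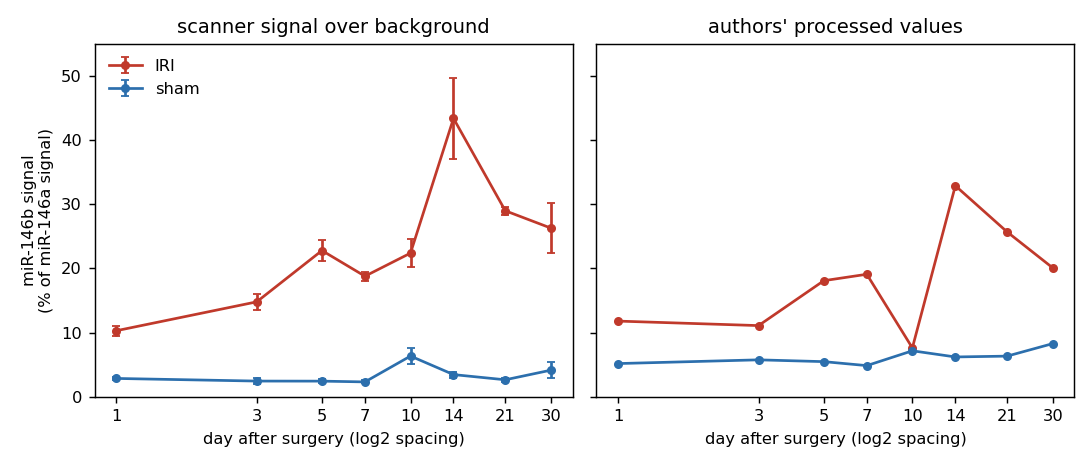
Signal of the miR-146b probe as percent of the miR-146a probe, against day after surgery (log scale) for IRI and sham samples, from scanner signal over background (left, error bars for the standard error over spots) and from the authors' processed values (right, no error given). On the left the IRI samples lie between 10.3% and 43.4% and the sham samples between 2.32% and 6.35%, with miR-146b not above background on days 7, 10 and 30 of sham and day 10 of IRI, and on the right the arms meet on day 10.

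In the main setting the miRs whose IRI over sham ratios followed the members most closely were miR-342-3p and miR-150, with the other member. Likeness was the root mean square difference of the log2 ratios over the 8 arrays after each miR had been centred on its own mean, so a small value is a close likeness. To miR-146a it was 0.477 for miR-342-3p, 0.551 for miR-150 and 0.603 for miR-146b, against a median of 1.15 over all miRs past the filter. To miR-146b it was 0.603 for miR-146a, 0.717 for miR-342-3p and 0.845 for miR-150, against a median of 1.35. Likeness was computed again in 14 other settings (processed values, background subtraction, offset 16, median scaling, median of the spots, values under 200 set to 200, and each day left out). miR-146a was nearest to miR-146b in all 14, whereas miR-146b ranged from rank 1 to rank 12 for miR-146a, rank 12 coming without day 1 or without day 30. miR-342-3p ranged from rank 1 to rank 8 for miR-146a and from 2 to 6 for miR-146b, and miR-150 from 2 to 3 and from 2 to 6. Without day 1 miR-218 was the nearest to miR-146a. Without centring, miR-199a-3p took rank 2 for miR-146b.

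These neighbours share no seed with miR-146. Their mature strands, with bases 2 to 8 in capitals, are shown for comparison.
miR-342-3p: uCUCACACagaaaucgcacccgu
miR-150: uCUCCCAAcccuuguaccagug
miR-342-3p is hosted by the Evl gene and is abundant in lymphocytes. Its log2 ratio was 0.14 on day 1 and 1.85 on day 30, and its IRI slope was 0.38. miR-150, a regulator of Myb in maturing lymphocytes, had 0.42 and 1.88, with an IRI slope of 0.42. The likeness is a description over 8 arrays that share their normalization.

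**Figure D5:**
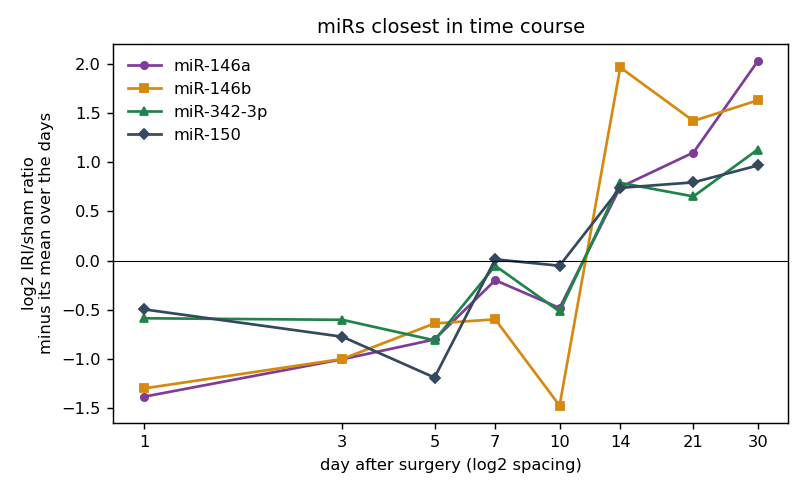
Log2 IRI over sham ratio minus its mean over the 8 days, against day after surgery (log scale), for miR-146a, miR-146b, miR-342-3p and miR-150, with 1 point per array. All 4 lie below 0 on days 1 to 5 and above 0 from day 14 on, and miR-146b departs most from the other lines on days 10 and 14.

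Of 7 other miRs linked to inflammatory signalling, 4 passed the filter and 3 were higher in IRI kidneys by limma on the mean ratio, where 18.5% of the 162 miRs were called higher. miR-21, which is induced in injured tubules, had a mean log2 ratio of 2.51 (adjusted p = 5.78e-05, limma), miR-155, which acts in activated leukocytes, 1.52 (adjusted p = 0.000887) and miR-132, a CREB-induced miR, 1.06 (adjusted p = 0.000573), each higher on 8 of 8 days. At least 7 of 8 days were higher in IRI for 24.1% of the 162 miRs. The authors had already reported miR-21 as different between IRI and sham, so the outcome of its test was known in advance. miR-125b-5p, which targets TNF, had 0.49 (limma, adjusted p = 0.15), and miR-212, miR-147 and miR-9 did not pass the filter. None of the 4 had a called IRI slope, which is near the share over the 162 miRs (4.32% called rising and 4.32% called falling). The limma slopes were -0.01 for miR-21, -0.16 for miR-155, 0.22 for miR-132 and 0.20 for miR-125b-5p, with adjusted p of 0.947, 0.479, 0.171 and 0.0871. miR-155 was already at 1944 in IRI kidneys on day 1 and at 1566 on day 30, when miR-146a stood at 536.5 and 4318. Over all IRI days miR-155 ranged from 558.2 to 1944. The median ratio of the 4 was 1.29, against -0.04 over all 162 miRs. The dyes were not swapped, so each mean ratio holds any dye bias of its probe.

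Some markers of other cells differed between the arms in the same samples. Of 5 leukocyte miRs 3 passed the filter, and miR-223, a myeloid miR (mean log2 ratio 0.98; limma, adjusted p = 0.0131), miR-150 (0.92; adjusted p = 0.0257) and miR-155 were all higher in IRI kidneys. Because miR-223 reached 200 in 4 IRI samples and in 0 sham samples, and stood at 141.8 in naive kidneys, it was tested only through the group in which it was high. miR-150 alone of these had a called rising IRI slope (limma, adjusted p = 0.0482). Over all 162 miRs 18.5% were called higher and 4.32% rising. The leukocyte-defining miR-142-3p and miR-142-5p were each above background in 2 of 17 samples. The summed normalized level of the 5 was 1447 to 3266 in IRI kidneys and 819.9 to 1177 in sham kidneys, and stood at 2531 on day 1 and 3266 on day 30. Without miR-155 the sum was 587.5 on day 1 and 1700 on day 30 in IRI kidneys, with 481.9 to 666.3 in sham kidneys. Most of that rise was miR-150, which went from 279.9 to 1316, while miR-223 went from 130.1 to 184.9. Such a sum adds probe intensities, not molecules, and holds a near constant floor from miR-142-3p (89.68 to 101.1 in IRI kidneys) and miR-142-5p (86.76 to 102.5).

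Of 4 tubule miRs 2 passed the filter, and both were lower in IRI kidneys, where 17.9% of the 162 miRs were called lower. The filter was not passed by miR-215, above background in 1 of 17 samples, nor by miR-204. The normalized intensity of miR-204 reached higher in IRI kidneys (86.07 to 183.9) than in sham kidneys (91.05 to 108.4). It was above background in 5 of 8 IRI and 1 of 8 sham samples. miR-192 had a mean log2 ratio of -0.88 (limma, adjusted p = 0.0125) and miR-194 of -0.76 (adjusted p = 0.00984), and the summed level of the 4 in IRI kidneys was 6277 on day 1 and 2365 on day 30, with 5627 to 10660 in sham kidneys. The authors had already reported miR-192, miR-194, miR-199a-3p and miR-214 as different between IRI and sham at every time analyzed. The outcome of testing these on the mean ratio was therefore known in advance. Of 5 miRs of fibroblasts and smooth muscle, all 5 passed the filter, 3 were higher in IRI kidneys (miR-199a-3p, miR-214 and miR-199a-5p) and 2 had rising IRI slopes (miR-199a-3p and miR-214), where 18.5% of the 162 miRs were called higher and 4.32% rising. miR-199a-5p reached 200 in 3 IRI samples and 0 sham samples, so it too was tested only through the group in which it was high. miR-143 and miR-145, of smooth muscle, had mean log2 ratios of -0.13 and -0.13 (limma, adjusted p = 0.488 and 0.69), each higher in IRI on 4 of 8 days. The sham slope of miR-214 was 0.37, beside 0.46 in IRI kidneys. That of miR-145 was 0.63 (limma, adjusted p = 0.0213), beside 0.20 in IRI kidneys. Their summed level in IRI kidneys was 5660 on day 1 and 14670 on day 30, and 4293 to 12910 in sham kidneys. The part of these cell types in the miR-146 levels was not tested.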

How the data were processed

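Kidney RNA of 17 pooled samples was hybridised to 9 arrays. The authors deposited the mean intensity of each spot, without background correction and in another (other) number format with comma separators, and a table of 1 processed intensity per miR and sample. How that table was made is not stated in these sources. The scanner intensities were corrected with normexp (offset 50), averaged over the 6 spots, normalized by loess within arrays (span 0.3, empty and control spots at weight 0) and by quantiles between array means, and taken to log2. Columns of day 10 were assigned through the processed table, whose columns name the arms. limma 3.58.1 (R 4.3.3) was fitted over the 162 miRs at 200 or more in any sample, adjusting p by Benjamini-Hochberg and calling values under 0.05. It tested the log2 IRI over sham ratio of the 8 arrays against 0, and the slope over log2 day within each arm. IRI and sham samples of a day were paired by their array. Tests of the members planned on these slopes and on the difference between their ratios are not reported, since both draw on the ratios that chose the pair. The scripts were tested on simulated data. Mature and hairpin sequences are from RefSeq (GRCm38.p6), where 462 of the 569 array sequences had an identical entry. That of miR-150 is the array's own. The members, the gene lists and the tests were chosen with earlier results of these data known. Named miRs were the members, the 3 nearest miRs to each by likeness, and those of the inflammation and leukocyte lists past the filter. The tubule and fibroblast lists served as cell markers. List members that did not pass the filter, and miRs that ranked high by likeness in another setting, were named after their values were seen. Alternatives changed the background correction, offset, scaling, filter, spot average, time scale, block and days included. The number of arrays limits the precision, and p-values measure the spread between days.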

Additional observations from a re-analysis of the deposited data

How the results depend on the processing

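Under the alternatives tried the mean log2 ratio was 1.27 to 1.33 for miR-146a and 0.93 to 2.06 for miR-146b, and leaving out 1 day gave 0.98 to 1.47 and 1.33 to 1.82. The IRI slope of miR-146a was 0.50 to 0.88 with 1 day left out. It is 0.61 by construction with no filter and with values under 200 set to 200, since all of its values lie above 200. The IRI slope of miR-146b was 0.70 with the processed values, 0.71 with background subtraction, 0.76 with an offset of 16, 0.83 with median scaling, 0.57 with values under 200 set to 200, 0.11 per day in place of log2 day, and 0.59 to 0.91 with 1 day left out. A filter on the mean, the random replicate block and the permutation of the days (added after the data had been seen) cannot move it from 0.66. The sham slope of miR-146b, -0.01, was 0.029 with the processed values, 0.16 with median scaling and 0.0 with values under 200 set to 200, and -0.042 to 0.001 with 1 day left out, and that of miR-146a -0.08 to -0.03. The difference between the members, -0.33, was -0.47 with the processed values, -0.78 with an offset of 16, -0.49 with median scaling, 0.34 with values under 200 set to 200, and -0.48 to -0.16 with 1 day left out. Its slope was 0.0075 with the median of the spots, 0.10 with values under 200 set to 200, and -0.075 to 0.072 with 1 day left out. Counts of called mean ratios went from 59 to 100 with no filter, 30 with values under 200 set to 200, 51 with no replicate block and 26 to 59 with 1 day left out. Called IRI slopes went from 14 to 6 with median scaling, under which all 569 miRs passed the filter so that scaling and tested set changed together, 2 with no filter (569 miRs), 2 with values under 200 set to 200 and 2 to 21 with 1 day left out. Called sham slopes went from 2 to 1 with no filter, with values under 200 set to 200 or with an intensity trend and robust prior, 5 with the random replicate block and 0 to 4 with 1 day left out. The mean ratios of the members, 1.27 and 1.61, are the same with and with no replicate block by construction. Median scaling moved the median ratio of all miRs to -0.20. The causes of these changes were not tested. Signal over background limits miR-146b, whose sham and naive levels were near the floor.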
